A study of Homo sapiens with 2 samples.

Results

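RUNX1 encodes the DNA-binding subunit of core binding factor, a transcription factor needed for definitive blood formation, and it is the partner of ETV6 in the t(12;21) translocation of childhood pre-B acute lymphoblastic leukaemia. Peaks of HA-tagged ETV6 were examined over RUNX1 at chr21:36160098-36421595 (hg19, minus strand) and over 300 kb on each side. Peaks were assigned by the position of their summit. The gene was chosen by its place in the translocation and by a jump in peak density that earlier results of these data had shown on the long arm of chromosome 21. Densities and heights are therefore given as descriptions, with no test. Of 315787 peaks in the list, 136 had their summit in the gene and 465 in the gene with its flanks.

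The material was Reh, an established pre-B leukaemia line that carries t(12;21). All cells received a pCCL lentiviral vector for ETV6, with an HA epitope tag in the test arm (pCCL ETV6-HA) and without it in the negative control (pCCL ETV6), and both went through the same pulldown with anti-HA magnetic beads. Both arms were transduced with 200 ng of virus and polybrene at 8 µg/mL, had their medium changed after 24 h and were cultured for 2 weeks. Each arm was given as 1 pool, and the list describes the tagged pool, so no spread between replicates could be measured. The vector supplied ETV6 to a line in which the translocation involves ETV6 itself. How much ETV6 the cells made from their own gene was not measured here. Intervals are 95% intervals for counting error over peaks (exact Clopper-Pearson for shares, exact Poisson for densities). They treat peaks as independent, which close neighbours may not be, so they can be too narrow. Library totals were not analysed, and depth is given as the number of reads at each summit.

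RUNX1 is read from 2 promoters. The distal promoter lies at the telomeric end of the gene, near 36421595, and the proximal promoter lies 160.6 kb further into the gene, near 36260987. Transcription runs from both towards the centromere. The distal promoter starts the longest protein isoform, and the proximal promoter starts the shorter isoforms. ETV6 is an ETS-family repressor, and ETS proteins bind DNA around a GGAA core. In t(12;21) RUNX1 is usually cut in its long first intron, between the 2 promoters, so that the start of ETV6 is joined to nearly all of the RUNX1 protein. Where the translocation cuts RUNX1 in these cells was not measured here. In the RefSeq order of protein-coding genes, RCAN1 and CLIC6 come before RUNX1 on the centromeric side, and SETD4 and CBR1 follow it on the telomeric side. Peaks were not assigned to these neighbours, because the annotation at hand is of another build.

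Only the proximal promoter is shown, because the RefSeq promoter set used here does not hold the distal start, so the letters of the 2 promoters could not be compared. The proximal promoter is the RUNX1 start on the sparse side of the jump. The letters that ETS proteins bind can be read in it. The sequence holds the 250 bases before the start, 5′ to 3′ on the minus strand, from RefSeq at chr21:34888700-34888949 (GRCh38.p14). Its start lies 160603 bp from the telomeric end of the gene in that build, against 160608 bp between the 2 promoter positions in hg19. Capitals mark GGAA, or TTCC on the other strand.

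RUNX1 proximal promoter: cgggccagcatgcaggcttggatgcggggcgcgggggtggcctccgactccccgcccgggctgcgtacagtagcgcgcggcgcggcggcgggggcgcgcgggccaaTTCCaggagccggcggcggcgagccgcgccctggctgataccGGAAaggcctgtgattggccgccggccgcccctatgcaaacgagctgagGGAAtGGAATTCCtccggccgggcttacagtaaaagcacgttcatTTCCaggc

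GGAA was found 6 times in these 250 bases, counting both strands, and 1 of the matches carried the longer form CCGGAA. Of 35116 RefSeq promoters of the same length, 92.7% held GGAA or TTCC at least once and 9.14% held it at least 6 times. CCGGAA or TTCCGG was present in 14.5% of them. The core site of RUNX proteins themselves, TGTGGT or ACCACA, had 0 matches here and occurred in 11% of promoters. G and C made up 71.2% of the letters, against a median of 58% over all promoters.

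Little signal was listed at this promoter. The nearest peak, at chr21:36260440-36260495, had its summit 520 bp inside the gene from the promoter position, outside the letters shown. It had 13 reads, a fold enrichment of 2.65 as the authors' peak caller gave it, and a width of 56 bp. A height of at least 13 reads was reached by 90.5% of all peaks in the list, so this was among the lowest peaks. In the other direction, upstream of the promoter, the nearest summit was 20530 bp away. Within 10 kb of the proximal promoter there were 2 peaks, both with 13 reads, and neither had q of at most 0.01. In the whole list 20.7% of peaks passed q of at most 0.01.

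The distal promoter lay among many more peaks than the proximal one, none of them close to the start itself. It lies on the dense side of the jump described below. Its 20 kb window held 15 peaks, against a median of 18 in the windows on that side. Within 10 kb there were 12 peaks with 13 to 21 reads and a median of 16, and 7 of the 12 had q of at most 0.01. Of all peaks on the dense side, 45.4% passed that limit. Within 1 kb there were 0. The nearest summit upstream was at 36422985, 1390 bp away, in a peak of 15 reads, and the nearest inside the gene was at 36418368, 3227 bp away, in a peak of 16 reads. The strongest of the 12, at chr21:36425797-36426183, lay 4475 bp upstream with 21 reads, a fold enrichment of 4.16 and a width of 387 bp. Counts at both promoters followed the distance allowed, with 3 peaks within 5 kb and 33 within 20 kb of the distal promoter, and 1 and 3 at the proximal promoter.

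The promoters lay on opposite sides of a jump in density inside the gene. Fitted with 1 change, density changed most at 36318735, 57.7 kb upstream of the proximal promoter and 102.9 kb inside the distal promoter. That position was chosen by the density itself, as the split of the gene and flanks into 2 constant densities with the highest Poisson likelihood. Positions from 36316108 to 36322827, a stretch of 6.72 kb, came within 2 log-likelihood units of it. The same summit was found when the search covered the gene alone, 1 Mb flanks or all of 21q. With peaks of q of at most 0.01 alone, the jump fell at 36323464.

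The last 3 summits on the centromeric side of the step were at 36287174, 36304011 and 36313416, with 15, 14 and 14 reads. Those on the telomeric side began at 36318735, 36320108 and 36321936, with 15, 13 and 16 reads. Within 20 kb of the step there were 2 peaks on the centromeric side and 24 on the telomeric side. Within 50 kb the counts were 4 and 60, and within 100 kb they were 10 and 117.

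**Figure D1:**
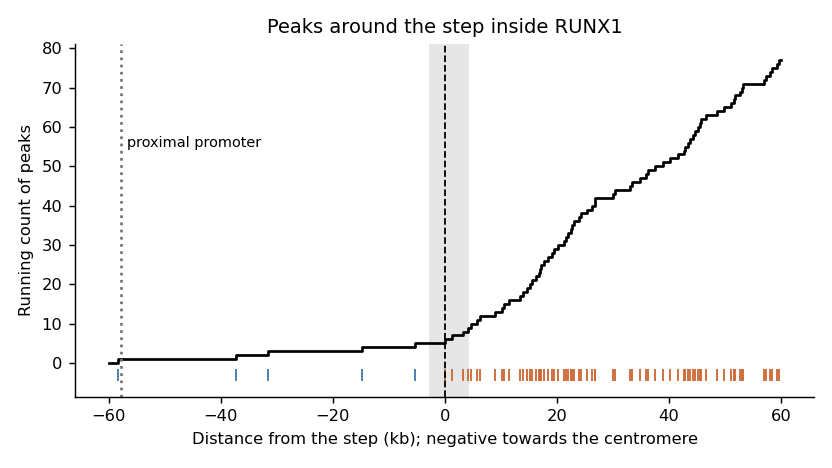
Running count of peaks within 60 kb of the step inside RUNX1, with 1 tick per peak below (blue, centromeric; orange, telomeric) and distance from the step in kb on the horizontal axis. The grey band is the 6.72 kb range of the step, where the line turns from nearly flat to steep, and the dotted line is the proximal promoter.

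Over the gene, 117 of the 136 peaks (86%, 79 to 91.4) lay on the telomeric side of the step, in 39.3% of its length. This part had 1137 peaks per Mb (941 to 1363). The 158.6 kb on the centromeric side, which hold the proximal promoter, had 19 peaks, or 119.8 per Mb (72.1 to 187). The ratio of the 2 densities was 9.5 within the gene. Over the gene and both flanks, 84 peaks lay on the centromeric side (183.2 per Mb, 146 to 227) and 381 on the telomeric side (945.7 per Mb, 853 to 1046), a ratio of 5.16. With peaks of q of at most 0.01 alone the ratio was 10.4. The autosomes other than 21 had 109.8 peaks per Mb, which lies within the interval of the sparse part of the gene. It lies below the interval of the whole centromeric side, whose density was 1.67 times that of these autosomes.

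In 20 kb windows, the gene fell into a low and a high stretch. The 7 whole windows of the gene on the centromeric side held 1 to 7 peaks, with a median of 2. Each of the 3 emptiest, which start at 36160098, 36200098 and 36260098, held 1 peak, and the last of these contains the proximal promoter. The window with the step, from 36300098 to 36320097, held 3. The next window held 25, and the 5 whole windows of the gene beyond the step held 19 to 28, with a median of 23. The densest were those from 36360098 with 28 peaks, from 36320098 with 25 and from 36380098 with 23. The window of the distal promoter, from 36420098, held 15.

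Over the gene and flanks together, the 22 windows on the centromeric side held 1 to 7 peaks and the 20 on the telomeric side held 11 to 28, so the groups did not overlap. This depended on the size and placing of the windows, as some 10 kb windows on the telomeric side held 0 peaks, and with windows shifted by 10 kb the highest centromeric window equalled the lowest telomeric one. Of all autosomal 20 kb windows, 0.869% held at least 11 peaks, and 575 of those 1213 windows were on chromosome 21. The median autosomal window held 2 peaks, and 99% held at most 10.

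**Figure D2:**
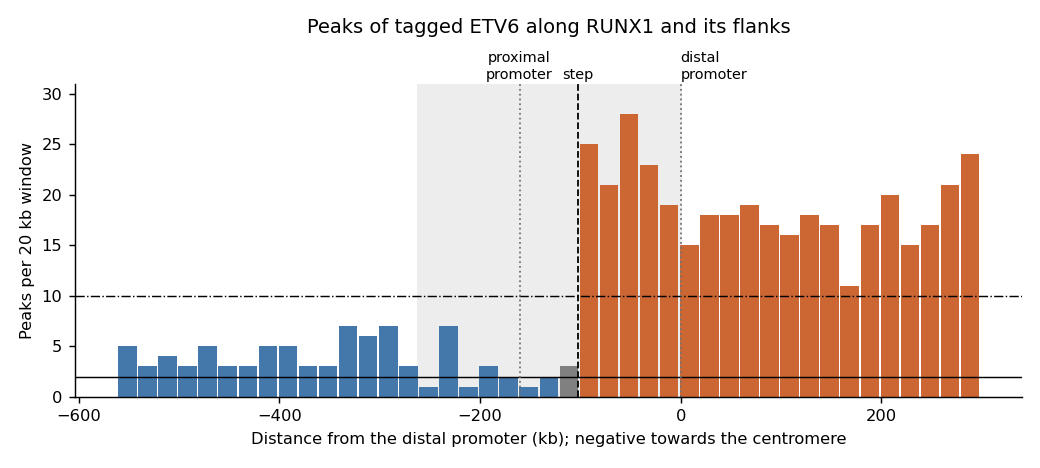
Number of peaks in each 20 kb window (vertical axis) against distance from the distal promoter in kb, with the gene shaded. Blue bars are windows on the centromeric side of the step (1 to 7 peaks), orange bars those on the telomeric side (11 to 28), and the grey bar holds the step; the solid line is the median of all autosomal windows (2) and the broken line their 99th percentile (10).

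On the telomeric side the gene had 1137 peaks per Mb (941 to 1363), against 880 (777 to 993) in the 300 kb beyond the distal promoter and 903.9 (887 to 922) over the rest of chromosome 21 further on. The step that bounds the 2 parts of the gene was placed by these same peaks, so the intervals are no test of a difference. On the centromeric side the gene had fewer peaks, 119.8 per Mb, than the adjoining flank, with 216.7 (167 to 276), and the 2 intervals overlapped. The 1 Mb before that flank had 191 per Mb (165 to 220).

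The size of the jump was also set beside all autosomal boundaries, for scale only, since RUNX1 was chosen for its jump and the step was placed at its sharpest point. At the scanned boundary 1.63 kb from the step, 54 peaks in the 300 kb before and 281 in the 300 kb after gave a ratio of 5.2. Of 115384 autosomal boundaries, 20 kb apart and with at least 10 peaks on each side, 0.209% had a ratio at least as high in either direction. The median boundary had 1.27 and the 99th percentile was 3.15. With stretches of 200 kb RUNX1 had a ratio of 7.03, which 0.0471% of boundaries reached. With 100 kb its ratio was 11.6, from 10 and 116 peaks, and 1 of 53195 boundaries reached it, the one at RUNX1; its sparser side then held just the 10 peaks that a boundary needed to be counted. The high boundaries fell into 51 places, RUNX1 among them. Only 2 of the 51, RUNX1 and a place near 71.2 Mb of chromosome 16 with 51 and 404 peaks, had at least 50 peaks on their sparser side. The limit of 50 was not a planned setting and lies just under the 54 peaks of RUNX1. This count is therefore no sign that the gene stands apart.

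Tall peaks made up a larger share on the telomeric side, although medians differed little. The median summit had 15 reads on the telomeric side and 14 on the centromeric side, and the list held no peak under 12 reads. Of the telomeric peaks 173 of 381 (45.4%, 40.3 to 50.6) had q of at most 0.01, against 19 of 84 (22.6%, 14.2 to 33) on the centromeric side and 20.7% of the whole list. The centromeric share was thus near that of the list. A height of at least 20 reads was reached by 37 telomeric peaks (9.71%, 6.93 to 13.1) and 1 centromeric peak (1.19%, 0.0301 to 6.46), against 2.66% of all peaks. The rest of chromosome 21 beyond the telomeric flank, with 10285 peaks, had shares close to those of the telomeric side, 41.8% (40.9 to 42.8) with q of at most 0.01 and 8.8% (8.26 to 9.36) with at least 20 reads. In the gene alone, 46 of 117 peaks on the telomeric side (39.3%, 30.4 to 48.8) and 2 of 19 on the centromeric side (10.5%, 1.3 to 33.1) had q of at most 0.01.

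**Figure D3:**
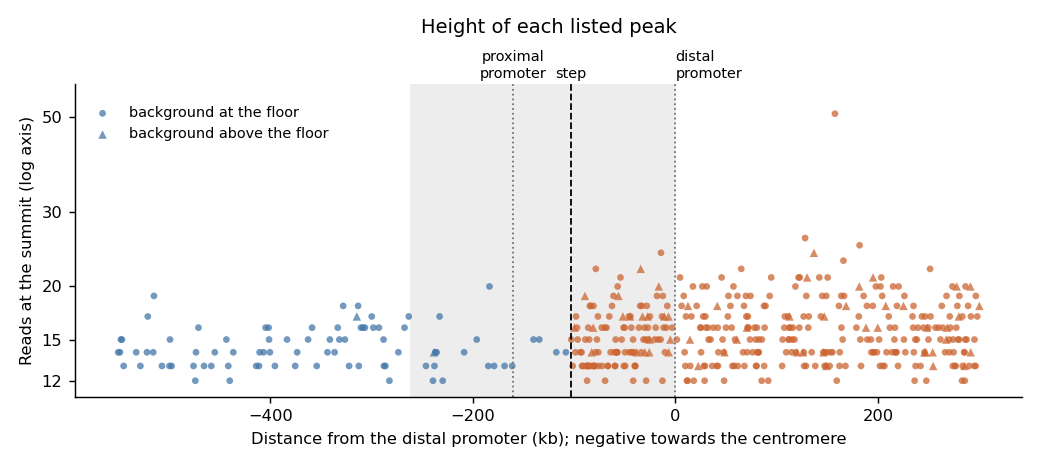
Reads at the summit of each of the 465 peaks (log axis) against distance from the distal promoter in kb, with the gene shaded. Blue marks lie on the centromeric side of the step and orange on the telomeric side, and triangles mark a background above the floor; orange marks are denser and reach 51 reads, while blue marks reach 20.

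The higher the peaks that were counted, the larger the ratio between the sides became. With at least 14 reads, 55 centromeric and 299 telomeric peaks gave 119.9 and 742.2 per Mb, a ratio of 6.19. With at least 16 reads, 20 and 179 peaks gave a ratio of 10.2, and with at least 18 reads, 4 and 87 peaks gave 24.8. With at least 20 reads the counts were 1 and 37, and at 21 reads or more they were 0 and 21. The 2 curves can also be compared along the axis of height. The telomeric side had as many peaks per Mb at 19.4 reads as the centromeric side at 14 reads, a ratio of 1.39, and at 21.2 reads as the centromeric side at 16 reads, a ratio of 1.33. From 12 to 19 reads on the centromeric side this ratio ran from 1.32, at 17 reads, to 1.54, at 12 reads. At 20 reads it was 2.55, from 1 centromeric peak. These ratios are read off peak densities and are not copy numbers.

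**Figure D4:**
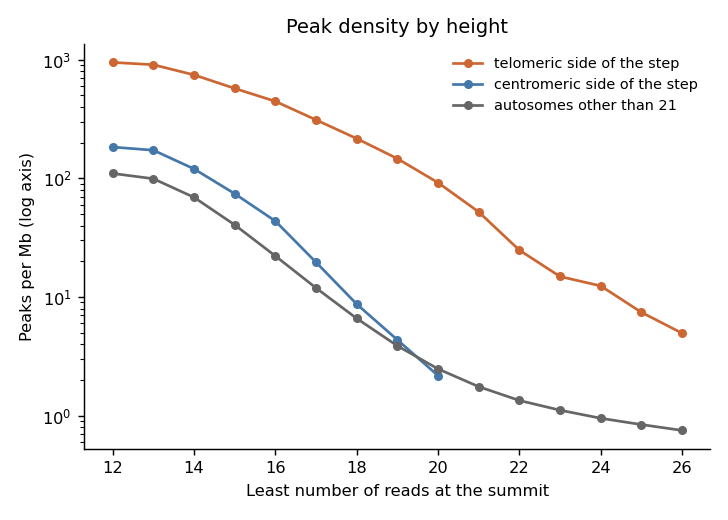
Peaks per Mb (log axis) with at least the number of reads on the horizontal axis, for the telomeric side (orange), the centromeric side (blue) and the autosomes other than 21 (grey). The orange curve starts at 945.7 per Mb and lies above the blue one throughout, by 5.16 times at 12 reads and 24.8 times at 18 reads; the blue curve ends at 20 reads because no taller peak was listed there.

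The strongest peaks of RUNX1, ranked by −log10 q, were modest on the scale of the list. The strongest in the gene, at chr21:36407205-36407380, lay 14.3 kb inside the distal promoter and had 24 reads, a fold enrichment of 4.73 and −log10 q of 7.11. A height of at least 24 reads was reached by 1.02% of all peaks. Next came chr21:36342888-36343111 with 22 reads, chr21:36367195-36367402 with 21 and chr21:36364428-36364794 with 20, all on the telomeric side. Another 2 telomeric peaks of the gene reached as many reads with a lower −log10 q, at chr21:36387017-36387502 with 22 reads and chr21:36405036-36405468 with 20. The remaining peak of the 5 strongest was the only one with at least 18 reads on the centromeric side of the gene. It lay at chr21:36237995-36238147, 22941 bp downstream of the proximal promoter, with 20 reads and a fold enrichment of 3.97. The other 18 peaks of that stretch had fewer than 18 reads. No peak of the gene reached 25 reads (0 of 136), against 0.889% of all peaks. A count of 0 allows a share of up to 2.21% by the value of 3 counts, and 2.68% by the exact interval.

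One peak upstream of RUNX1 stood well above the rest. It lay at chr21:36578752-36579201, 157.4 kb upstream of the distal promoter, with 51 reads, a fold enrichment of 9.84, −log10 q of 32.1 and a width of 450 bp. A height of at least 51 reads was reached by 0.157% of the list. The next in the telomeric flank were chr21:36549337-36549628 with 26 reads and chr21:36603223-36603524 with 25 reads. In the centromeric flank the strongest was chr21:35906849-35907004 with 19 reads. The peaks at chr21:36093557-36093663 and chr21:36108304-36108479 followed with 18 each.

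Telomeric peaks lay closer together, which goes with their higher density. The median distance between neighbouring summits was 753.5 bp on the telomeric side and 3705 bp on the centromeric side, and 63.4% and 15.7% of neighbours were at most 1 kb apart. The rest of chromosome 21 beyond the flank was spaced like the telomeric side, with a median of 794 bp and 61% of neighbours at most 1 kb apart. When peaks with gaps of up to 1000 bp were joined, 334 of the 381 telomeric peaks (87.7%, 83.9 to 90.8) fell into 73 runs of at least 2 peaks, and 24 runs had at least 5. On the centromeric side 24 of 84 peaks (28.6%, 19.2 to 39.5) fell into 10 runs, none with 5 or more. The longest run, at chr21:36386617-36396528, lay inside RUNX1 and held 17 peaks over 9.91 kb, with at most 22 reads. Another at chr21:36332174-36338980 held 14 peaks. Counted as joined runs and single peaks, the telomeric side had 297.9 per Mb and the centromeric side 152.6, a ratio of 1.95 in place of 5.16. Joining at a fixed gap makes more and longer runs where peaks are denser. Whether peaks clustered beyond their density on either side was not tested. Peaks covered 17.1% of the gene on the telomeric side and 1.38% on the centromeric side, and 14.3% of chromosome 21 beyond the flank.

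Up to 16 reads, peaks of equal height had much the same width on both sides. At 14 reads the median width was 106 bp on the centromeric side (n = 21) and 101 bp on the telomeric side (n = 69), against 94 bp on the autosomes other than 21. At 15 reads it was 141 bp (n = 14) and 131 bp (n = 51), against 114 bp. At 16 reads the values were 150 bp (n = 11) and 145 bp (n = 54), against 132 bp. At these 3 heights the medians of both sides lay above those of the other autosomes. At 12 reads they lay below, with 61 bp (n = 5) and 65 bp (n = 17) against 66 bp, and at 13 reads they were 81.5 bp (n = 24) and 79 bp (n = 65) against 78 bp. The sides differed most at 17 reads, with 168 bp on the centromeric side (n = 5) and 184 bp on the telomeric side (n = 38), against 147 bp.

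The background under the peaks also differed between the sides. The background is the level from which the peak caller computed fold and p, recovered here from those values, and it had a floor of 4.29 reads that most peaks shared. It lay above the floor at 54 of 381 telomeric peaks (14.2%, 10.8 to 18.1) and at 2 of 84 centromeric peaks (2.38%, 0.29 to 8.34), against 4.19% of all peaks. On chromosome 21 beyond the flank the share was 14.5% (13.8 to 15.2), close to that of the telomeric side. The highest value was 7.05 reads on the telomeric side and 5.64 reads on the centromeric side. In the gene the counts were 19 of 117 and 1 of 19. At matched height the counts were small, with 13 of 69 (18.8%) and 1 of 21 (4.76%) at 14 reads, 5 of 51 (9.8%) and 0 of 14 at 15 reads, 7 of 54 (13%) and 0 of 11 at 16 reads, and 9 of 38 (23.7%) and 1 of 5 at 17 reads. The intervals overlapped at each of these heights, and with so few centromeric peaks they are wide. With peaks at the floor alone, the density ratio across the step was 4.54. Whether the background comes from the untagged pool is not given in the sources used here, and its part in the step was not tested. How many copies of each side these cells carry was not measured, so more copies of the DNA and more binding per copy cannot be told apart.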

How the data were processed

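The authors deposited 1 narrowPeak list for the tagged pool. Per the submitters' processing notes, build hg19, MACS2 2.1.1.20160309 and Bowtie2 2.2.3 were used, with settings not given in the sources used here. Deposited columns 7 to 9 were taken as fold (a linear ratio over local background), −log10 of the p-value and −log10 of the q-value. The smallest entry of the last shows a limit of 0.1 on q. The deposited score was not analysed, and the other deposited columns give start, end and summit. The series text speaks of triplicates, while the titles name pools.

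Reads and background at each summit were solved from fold = (reads + 1)/(background + 1) and the Poisson tail of the p-value. Reads came out whole within 0.05 for all but 1 of 315787 peaks, and 302553 backgrounds lay at the floor of 4.29 reads, where 1 read changed the fold by 0.189. Summits were counted in 43 whole windows of 20 kb, laid from the start of the centromeric flank, and the remainder was left out. The step search used a 10 bp grid and all summits. Both procedures were tested on simulated data. The simulated peaks were placed evenly and independently on each side of a step, so closely grouped peaks were not covered. The simulated heights did not cover the lowest and the tallest peaks of the list.

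By rule, the peaks named were the 5 strongest by −log10 q in the gene, the 3 strongest in each flank, the nearest summits to each promoter and the 3 on each side of the step, with the 3 densest and emptiest windows. The strongest peak near the distal promoter, 2 further tall peaks of the gene, the runs and the places on other chromosomes were chosen after their values were seen. Gene, members and lists were chosen with earlier results of these data known. Alternatives were q limits, merging, flanks, windows and promoter distances. Counts in neighbouring and RUNX family genes were not run, since no hg19 annotation was used. Promoter letters came from RefSeq (GRCh38.p14), where 1 of 1 member matched. Tools were matplotlib 3.10.9, numpy 2.4.6, scipy 1.17.1, pandas 2.3.3 and Python 3.11.15.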

Additional observations from a re-analysis of the deposited data

How the results depend on the processing

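Of 38 alternatives, 19 kept a value within its interval or within 1.5 times, 18 moved it and 1 reversed it. Boundary scans with other stretches were chosen after seeing the data. The 136 peaks in RUNX1 became 48 at q of at most 0.01 and 45 after merging within 1000 bp, both by construction. The step moved from 36318735 to 36323464 with q of at most 0.01. The density ratio of 5.16 was 10.4 at q of at most 0.01 and 9.5 in the gene body. It was 1.94 after merging, where each run kept its strongest peak, against 1.95 for the runs and single peaks given above. The lowest telomeric window over the highest centromeric one, 1.57 with 20 kb windows, was 2.77 with 50 kb windows, 1 with windows shifted by 10 kb and, reversed, 0 with 10 kb windows. The raised background share was 9.8% (telomeric) and 0% (centromeric) among peaks of exactly 15 reads, and 0% (centromeric) at q of at most 0.01. Promoter peaks were 3 within 5 kb, 33 within 20 kb and 7 at q of at most 0.01 (distal), and 1 within 5 kb and 0 at q of at most 0.01 (proximal). The share of boundaries at or above the ratio of RUNX1, 0.209% with 300 kb stretches, was 0.0471% with 200 kb and 0.00188% (1 of 53195, RUNX1 itself) with 100 kb. Causes were not tested. With 1 pooled list no replicate could be left out, and 20 or more reads rest on 1 centromeric peak.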

Other observations

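Among the 51 places with a density ratio at least that of RUNX1, the other 50 differed widely in the background of their denser 300 kb. The share of peaks there with a background above the floor was 13.5% at RUNX1 and ran from 0% to 96.8% elsewhere, with a median of 6.31%. The 3 highest ratios were 34.4 at 57.6 Mb of chromosome 6 (378 and 11 peaks, 48.4% above the floor), 29.4 at 144.8 Mb of chromosome 1 (353 and 12 peaks, 73.4%) and 26.9 at 190.4 Mb of chromosome 4 (376 and 14 peaks, 96.8%). Only 5 of the 50 had at least the 281 peaks of RUNX1 on their denser side. At 48 of the 50 the sparser side held at most 20 peaks, against 54 at RUNX1. The limit of 20 was not a planned setting either, and RUNX1 was chosen for its jump, so this is a description only.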
